A study of Mus musculus with 6 samples.

Results

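The LIF receptor and STAT3 axis of mouse embryonic stem cells (mESCs) was followed here as 10 genes chosen by name among 55385 genes in the count table: the receptor chains *Lifr* and *Il6st*, the kinases *Jak1* and *Jak2*, the transcription factor *Stat3*, its feedback inhibitor *Socs3* and the targets *Pim1*, *Pim3*, *Gbx2* and *Bcl3*. RNA had been sequenced in 3 genotypes with 2 libraries each. They were wild-type G4 mESCs, a hybrid 129/Sv and C57BL/6 line, and G4 derivatives carrying a heterozygous or a homozygous deletion of the *Wnt6* anchor region, the *Wnt6* end of a chromatin loop on chromosome 1, made with CRISPR-Cas9. All cells grew in Knockout DMEM with LIF on CD1 mouse feeder cells. Edited lines were screened as individual clones, and the labels do not say whether both libraries of a genotype came from the same clone, so p-values measure the spread between these libraries, which may be technical, and a difference between clones cannot be told apart from one between genotypes.

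LIF is a cytokine of the interleukin 6 family that keeps mESCs self-renewing in culture. It joins LIFR and the shared signalling chain gp130, the product of *Il6st*, into a receptor whose bound Janus kinases phosphorylate STAT3, and STAT3 then enters the nucleus and activates its targets. SOCS3, itself induced by STAT3, binds gp130 and the kinases and damps the signal. RNA levels measure none of the phosphorylation steps of this pathway.

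The libraries held between 23813912 and 28964706 counts. The deletion was visible in the genes it removes: *Wnt6*, a Wnt ligand gene, was counted 11 and 13 times in the wild-type pair, 6 and 4 times in the heterozygous pair and not at all in the homozygous pair (a count of 0 allows up to 3 counts a library), and *Cdk5r2*, which encodes a CDK5 activator, had 30 and 27, 16 and 17, and 1 and 2. The labelled cell type held its defining marker *Pou5f1*, the OCT4 gene, at 983 ± 12.6 CPM (counts scaled to a common library total; SD, n = 2) in wild-type, 904 ± 38.4 in heterozygous and 1021 ± 62.7 in homozygous mESCs. RNA typical of fibroblasts was present as well, and whether it came from the feeder cells was not tested. *Col1a1*, the collagen gene typical of fibroblasts, had 416 ± 11.7 CPM in wild-type, 280 ± 24.6 in heterozygous and 172 ± 1.17 in homozygous libraries (SD, n = 2), and in bulk RNA fewer cells of a type and less RNA per cell cannot be told apart.

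All 10 genes had upstream sequence in RefSeq (GRCm38.p6), as 12 windows of 300 bases around annotated transcription start sites, 2 each for *Lifr* and *Pim1*. The general STAT recognition motif, TTCNNNGAA, which reads the same on both strands, occurred in 1 of the 12 windows and in 8.30% of the 32851 windows of all genes. The match, TTCTTAGAA, lay in *Socs3*, from 154 to 146 bases before the start, at chr11:117969512-117969520 on the minus strand, in an intron of a longer non-coding *Socs3* transcript in GENCODE. The stricter form TTCCNGGAA, which overlaps the general motif, was in 0 of the 12 windows and 1.15% of all. The bases from 250 to 41 before the start are given for *Socs3*, with the match in capitals, and for the 3 genes whose RNA passed the test between a deletion and wild-type (for *Pim1* at the upstream start).
Socs3 chr11:117969407-117969616 minus strand: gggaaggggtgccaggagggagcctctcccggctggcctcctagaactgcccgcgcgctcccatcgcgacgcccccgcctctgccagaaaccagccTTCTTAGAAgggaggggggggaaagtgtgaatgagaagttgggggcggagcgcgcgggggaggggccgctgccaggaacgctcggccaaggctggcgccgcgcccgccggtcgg
Pim1 chr17:29490535-29490744 plus strand: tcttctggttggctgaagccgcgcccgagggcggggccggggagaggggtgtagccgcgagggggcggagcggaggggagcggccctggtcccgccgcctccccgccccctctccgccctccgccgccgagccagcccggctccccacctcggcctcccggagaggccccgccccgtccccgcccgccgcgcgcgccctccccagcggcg
Gbx2 chr1:89931217-89931426 minus strand: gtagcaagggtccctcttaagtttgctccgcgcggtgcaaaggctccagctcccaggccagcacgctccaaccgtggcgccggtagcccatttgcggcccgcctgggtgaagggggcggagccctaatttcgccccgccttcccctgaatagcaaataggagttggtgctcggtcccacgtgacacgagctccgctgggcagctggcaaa
Bcl3 chr7:19822796-19823005 minus strand: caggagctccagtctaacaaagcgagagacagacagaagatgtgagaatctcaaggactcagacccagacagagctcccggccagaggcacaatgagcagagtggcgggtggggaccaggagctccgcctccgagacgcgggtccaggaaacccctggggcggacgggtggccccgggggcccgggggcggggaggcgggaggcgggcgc
These stretches are rich in CpG. Within the 250 bases before the start there were 26 CpG dinucleotides in *Socs3*, 36 in *Pim1*, 18 in *Gbx2* and 19 in *Bcl3*, against a median of 6 over all windows and 22.5 over the 12. A match to the motif describes these letters and was not tested as a binding site.

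The genes were expressed at very different levels. Divided by the length of their exons, the targets *Pim3* and *Pim1* were the most abundant in wild-type mESCs, with 38.9 ± 0.337 and 36.7 ± 1.06 CPM per kilobase of exon (SD, n = 2). *Socs3* followed at 19.3 ± 0.410 and *Stat3* at 10.6 ± 0.340. *Jak1* had 9.34 ± 0.0587, *Bcl3* 8.79 ± 0.0794, *Il6st* 6.69 ± 0.115 and *Gbx2* 6.50 ± 0.549 CPM per kilobase. The receptor chain *Lifr* at 3.99 ± 0.0894 and *Jak2* at 2.34 ± 0.127 came last. Only *Il6st* and *Gbx2* had libraries that overlapped between neighbours in this order. The order depended on the length used in 1 place, since with the longest coding transcript *Pim1* stood above *Pim3* in wild-type, at 45.7 against 38.9 CPM per kilobase.

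**Figure D1:**
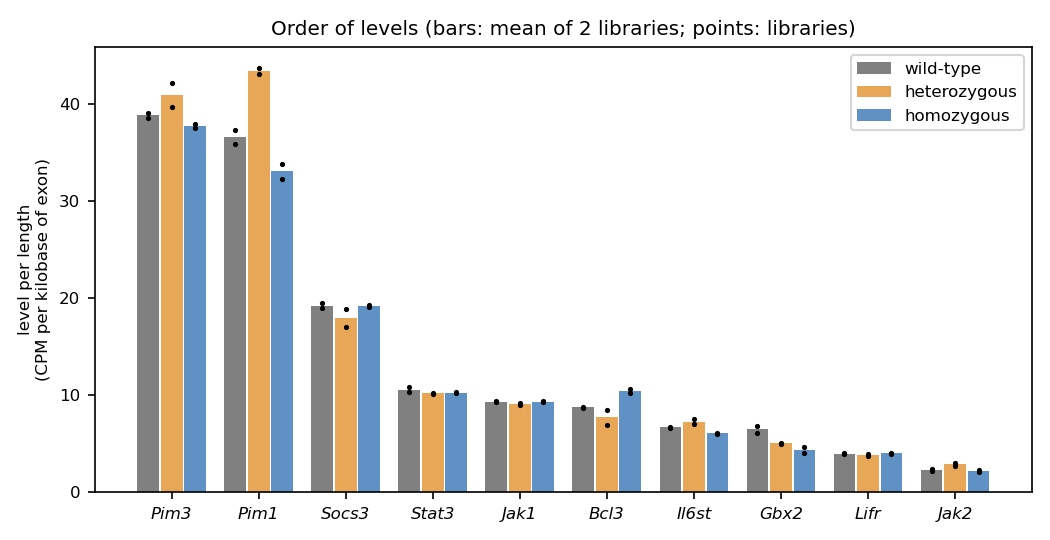
Level per length (CPM per kilobase of exon, linear axis from 0) of the 10 genes in wild-type, heterozygous and homozygous libraries; bars are means of 2 libraries and points are the libraries. Pim3 leads in wild-type with 38.9 and in homozygous mESCs with 37.7, Pim1 leads in heterozygous mESCs with 43.4, and Jak2 is lowest in every genotype.

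By this length the order moved in few places between genotypes. In heterozygous mESCs *Pim1* stood above *Pim3*, at 43.4 against 41.0 CPM per kilobase of exon, and *Bcl3* at 7.73 overlapped with *Il6st* at 7.29. In homozygous mESCs *Bcl3* reached 10.4 and overlapped with *Stat3* at 10.3. With the longest coding transcript *Pim1* led *Pim3* in all 3 genotypes, at 41.2 against 37.7 CPM per kilobase in homozygous mESCs, where *Bcl3* at 13.95 then overlapped with *Jak1* at 13.8 and stood below *Stat3* at 16.2, and *Lifr* and *Gbx2* overlapped. *Lifr* stayed ahead of *Jak2* in all 3 genotypes by both lengths.

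Whether the deletion altered the axis was asked with 3 comparisons in edgeR, where a gene was called at a Benjamini-Hochberg adjusted p below 0.05. *Lifr*, *Jak1*, *Stat3* and *Socs3* were called in no comparison, and their 95% intervals reached no further from 0 than 0.22 on the log2 scale. The target *Pim3* was called in no comparison either. The calls fell on *Pim1* and *Gbx2* in both deletions against wild-type, on *Bcl3* in the homozygous one, and on *Il6st*, *Jak2*, *Pim1* and *Bcl3* between the deletions. No gene of the 10 passed the study's further threshold of an absolute log2 fold change above 1, by edgeR or by DESeq2, and 0.66 was the largest over all alternatives tried.

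In heterozygous mESCs 1 of the 10 genes was called higher and 1 lower, beside 2.23% of all 16951 genes tested called higher, 2.91% lower and 0.165% past the fold threshold. In homozygous mESCs 1 was called higher and 2 lower, beside 10.9% and 10.5% of all genes and 2.14% past the fold threshold. These shares include the 890 tested genes of chromosome 8, whose median log2 fold change was 0.39 in this comparison. The 10 genes lie on other chromosomes, and the part of chromosome 8 in the shares was not tested. Between homozygous and heterozygous mESCs 1 was called higher and 3 lower, beside 12.9% and 12.9% of all genes and 1.39% past the fold threshold. The split of all calls moved with the scaling. Of the genes called in homozygous mESCs against wild-type 50.8% were higher, against 31.9% when libraries were scaled by total counts only, and against heterozygous mESCs the shares were 50.1% and 29.4%. The libraries of the 2 genotypes did not overlap for 10 of the 10 genes in the heterozygous comparison, 6 in the homozygous one and 9 between the deletions, where 47.7%, 57.9% and 61.4% of all genes did not overlap. The median log2 fold change of the 10 genes was -0.04, -0.04 and -0.05, against medians of all genes of 0.00, -0.01 and -0.02.

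**Figure D2:**
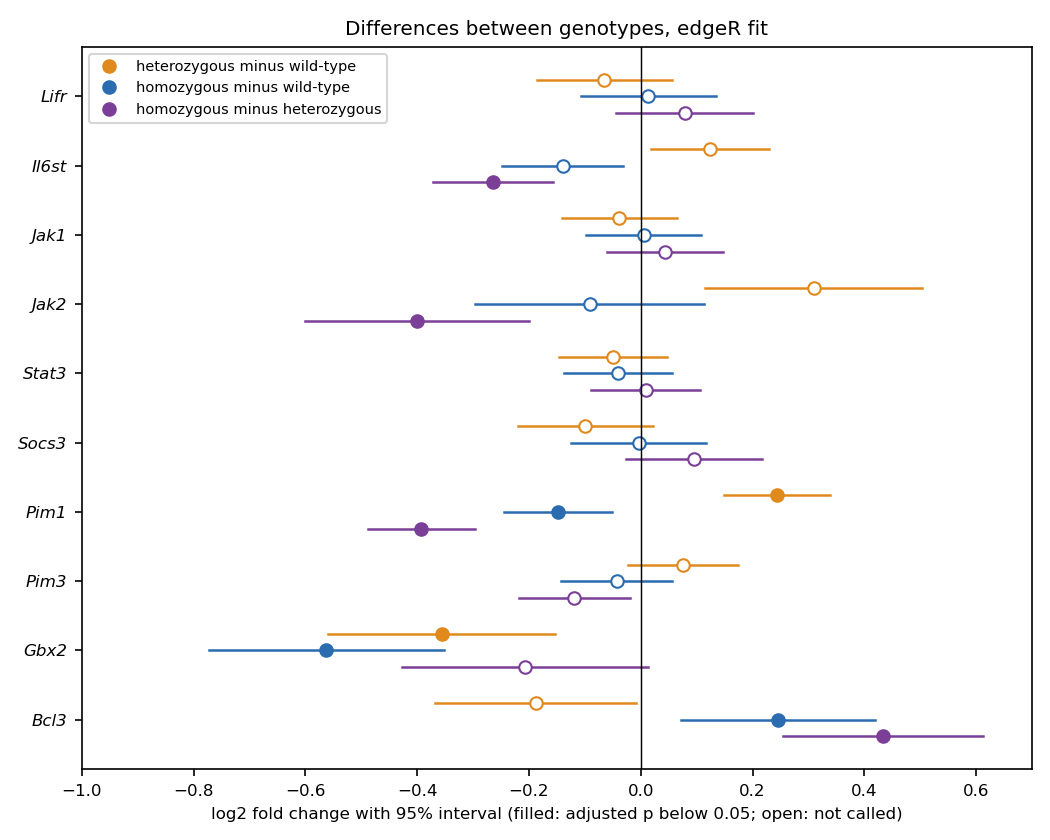
Log2 fold change (x axis) with its 95% interval for the 10 genes (y axis) in heterozygous minus wild-type, homozygous minus wild-type and homozygous minus heterozygous mESCs; filled points passed an edgeR adjusted p of 0.05 and open points did not. Lifr, Jak1, Stat3 and Socs3 lie near 0 in every comparison, while Pim1 lies at 0.24 in heterozygous and -0.15 in homozygous mESCs against wild-type.

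*Lifr* (ENSMUSG00000054263, GRCm38 chr15:7090614-7197489, plus strand) encodes the chain that LIF joins to gp130. *Lifr* had 42.3 and 43.7 CPM in the wild-type pair, 39.9 and 42.3 in the heterozygous pair and 43.6 and 43.2 in the homozygous pair. The lowest library was heterozygous and the homozygous pair lay inside the wild-type pair. The log2 fold change was -0.07 in heterozygous mESCs (95% interval -0.19 to 0.06, adjusted p = 0.65) and 0.01 in homozygous mESCs (-0.11 to 0.13, adjusted p = 0.90). *Il6st* (chr13:112464070-112510086, plus strand), whose gp130 product is shared with the other interleukin 6 family receptors, had 73.4 and 75.2 CPM in the wild-type pair, 78.0 and 83.9 in the heterozygous pair and 67.6 and 67.3 in the homozygous pair. The 3 genotypes did not overlap, with heterozygous libraries highest and homozygous ones lowest. Neither deletion was called against wild-type, with log2 fold changes of 0.12 (SE 0.05, adjusted p = 0.20) and -0.14 (95% interval -0.25 to -0.03, adjusted p = 0.061). Homozygous mESCs were lower than heterozygous mESCs by a called difference of -0.26 (SE 0.05, adjusted p = 0.000715), which held in all 14 alternatives. The homozygous difference of *Il6st* from wild-type became a call in 4 of them, among them scaling by total counts only, with -0.20 and an adjusted p of 0.0096.

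Because *Il6st* alone already separated the genotypes and *Lifr* varied little, the ratio of the receptor chains within a library separated them too. Per kilobase of exon *Il6st* exceeded *Lifr* 1.68 and 1.67 times in wild-type, 1.897 and 1.93 times in heterozygous and 1.504 and 1.51 times in homozygous libraries. This ratio was chosen after the values were seen and was not tested.

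Among the kinases, *Jak1* (chr4:101152367-101265282, minus strand), the Janus kinase most tied to gp130 signalling, had 67.2 and 67.8 CPM in the wild-type pair, 66.3 and 65.2 in the heterozygous pair and 67.7 and 67.8 in the homozygous pair. The heterozygous pair lay just below the others, and the log2 fold changes of -0.04 (adjusted p = 0.78) and 0.01 (adjusted p = 0.96) against wild-type were not called. *Jak2* (chr19:29251828-29313080, plus strand), which also signals for other cytokine and hormone receptors, had 12.2 and 11.3 CPM in the wild-type pair, 13.9 and 15.3 in the heterozygous pair and 10.5 and 11.6 in the homozygous pair. Both heterozygous libraries stood above the other 4, while wild-type and homozygous libraries overlapped. The heterozygous log2 fold change of 0.31 missed the call (95% interval 0.12 to 0.50, adjusted p = 0.062) and passed it when only the libraries of those genotypes were fitted (adjusted p = 0.027) or when either homozygous library was left out (adjusted p = 0.026 both times). Against wild-type the homozygous value was -0.09 (adjusted p = 0.57). *Jak2* was lower in homozygous than in heterozygous mESCs by a called -0.40 (SE 0.10, adjusted p = 0.0041), a call that was lost without heterozygous replicate 2 (-0.33, adjusted p = 0.062).

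*Stat3* (chr11:100885098-100939540, minus strand), the transcription factor on which the LIF signal converges, had 98.6 and 103.2 CPM in the wild-type pair, 96.8 and 98.04 in the heterozygous pair and 98.2 and 97.9 in the homozygous pair. The deletion libraries all lay below the wild-type pair by less than the spread of that pair. Its log2 fold changes were -0.05 (95% interval -0.15 to 0.05, adjusted p = 0.66) and -0.04 (-0.14 to 0.06, adjusted p = 0.59). *Socs3* (chr11:117966079-117970047, minus strand), the inhibitor whose upstream window holds the STAT motif match, had 54.8 and 56.5 CPM in the wild-type pair, 54.7 and 49.3 in the heterozygous pair and 55.2 and 55.8 in the homozygous pair. Heterozygous replicate 2 was the lowest, and the homozygous pair lay inside the wild-type pair. The log2 fold change was -0.10 in heterozygous mESCs (95% interval -0.22 to 0.02, adjusted p = 0.43) and -0.0039 in homozygous mESCs (-0.12 to 0.12, adjusted p = 0.97). Per kilobase of exon *Socs3* exceeded *Stat3* between 1.66 and 1.88 times in the 6 libraries, and the genotypes overlapped in this ratio.

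**Figure D3:**
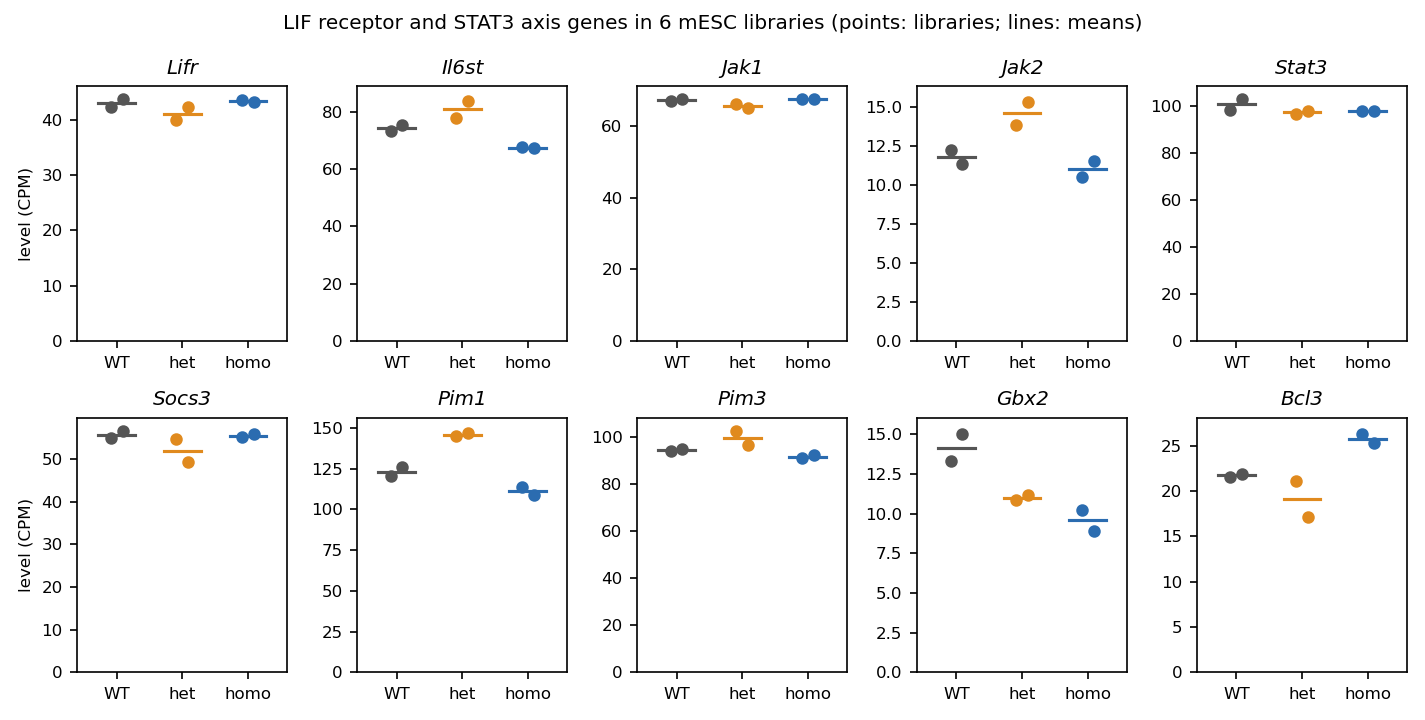
Level of each of the 10 genes in CPM (each panel with its own linear axis from 0) in the 2 wild-type (WT), 2 heterozygous (het) and 2 homozygous (homo) libraries; points are libraries and lines are means of 2. Pim1 is highest in heterozygous libraries (145 and 147 CPM), Gbx2 is highest in wild-type libraries (13.3 and 15.0 CPM) and Bcl3 is highest in homozygous libraries (26.3 and 25.3 CPM).

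Among the 10 genes, the called differences from wild-type were in the STAT3 targets *Pim1*, *Gbx2* and *Bcl3*, while the targets *Pim3* and *Socs3* were not called. *Il6st* in homozygous and *Jak2* in heterozygous mESCs narrowly missed the call, with edgeR adjusted p of 0.061 and 0.062. *Pim1* (chr17:29490753-29496112, plus strand), a serine/threonine kinase gene induced by STAT3, had 121 and 126 CPM in the wild-type pair, 145 and 147 in the heterozygous pair and 114 and 109 in the homozygous pair. The genotypes did not overlap, and they lay on opposite sides of wild-type. *Pim1* rose by 18.5% in heterozygous mESCs (log2 fold change 0.24, SE 0.05, adjusted p = 0.0021) and fell by 9.74% in homozygous mESCs (-0.15, SE 0.05, adjusted p = 0.027). Between homozygous and heterozygous mESCs it fell by 23.8% (-0.39, SE 0.05, adjusted p = 2.2e-06), which held in all 14 alternatives. The rise was lost only without wild-type replicate 1 (0.21, adjusted p = 0.072). The homozygous call was lost under DESeq2 (adjusted p = 0.087) and without wild-type replicate 1 (0.060), wild-type replicate 2 (0.26) or homozygous replicate 2 (0.15). Its relative *Pim3* (chr15:88862186-88865726, plus strand) had 93.8 and 94.9 CPM in the wild-type pair, 102 and 96.5 in the heterozygous pair and 91.1 and 92.1 in the homozygous pair. *Pim3* had the same order of genotypes as *Pim1* without passing the test, at 0.08 (adjusted p = 0.46) and -0.04 (adjusted p = 0.59) against wild-type and -0.12 (adjusted p = 0.075) between the deletions. The last value was called with total counts only (-0.19, adjusted p = 0.0067).

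*Gbx2* (chr1:89927956-89931179, minus strand), a homeobox gene that can sustain self-renewal downstream of LIF, lies 15.1 Mb from *Wnt6* on the chromosome of the deletion. It had 13.3 and 15.0 CPM in the wild-type pair, 10.9 and 11.2 in the heterozygous pair and 10.3 and 8.92 in the homozygous pair, from 232 to 391 counts. Every deletion library lay below both wild-type libraries, and every homozygous library below both heterozygous ones. *Gbx2* fell by 32.3% in homozygous mESCs (log2 fold change -0.56, SE 0.10, adjusted p = 0.00034), a call kept in all 14 alternatives. It fell by 21.9% in heterozygous mESCs (-0.36, SE 0.10, adjusted p = 0.036), but this call was lost under DESeq2 (adjusted p = 0.20) and without wild-type replicate 1 (0.061) or 2 (0.39) or heterozygous replicate 1 (0.16) or 2 (0.17). The difference between the deletions, -0.21, was not called (adjusted p = 0.16). *Gbx2* shares 946 exonic bases with the antisense gene D130058E05Rik, which had 31 to 57 counts. The strand setting of the counting is not given in the sources used here, so reads of the pair may not be separable. The same holds for 488 bases of *Pim1* with Gm26885 (22 to 43 counts) and 161 bases of *Bcl3* with Gm16175 (1 to 9 counts).

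*Bcl3* (chr7:19808462-19822770, minus strand), which encodes an atypical IκB protein acting as a nuclear cofactor, moved the other way. It had 21.6 and 21.9 CPM in the wild-type pair, 21.1 and 17.2 in the heterozygous pair and 26.3 and 25.3 in the homozygous pair. Homozygous libraries were highest and heterozygous ones lowest, without overlap. *Bcl3* rose by 18.6% in homozygous mESCs (log2 fold change 0.25, SE 0.08, adjusted p = 0.040) and by 35.0% from heterozygous to homozygous mESCs (0.43, SE 0.09, adjusted p = 0.00079), and the latter held in all 14 alternatives. The heterozygous value, -0.19, was not called (adjusted p = 0.28), but was without heterozygous replicate 1 (-0.34, adjusted p = 0.044). The homozygous call against wild-type was lost under DESeq2 (adjusted p = 0.14), scaling by total counts only (0.12) and crossed replicate numbers (0.054), and without wild-type replicate 1 (0.19) or 2 (0.12) or homozygous replicate 1 (0.12).

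By edgeR the targets did not share a direction in homozygous mESCs: *Pim1* and *Gbx2* fell, *Bcl3* rose, and *Pim3* and *Socs3* were not called. This 1 rise and these 2 falls among the 10 genes stand beside 10.9% and 10.5% of all genes. The calls of *Pim1* and *Bcl3* were lost under DESeq2 (adjusted p = 0.087 and 0.14) and in other alternatives, so opposite directions are not established. The comparisons share libraries, since the wild-type pair enters both deletions and the heterozygous pair enters 2 comparisons, so their values are not independent of each other. For the members not called, the 95% intervals reached no further from 0 than 0.50 in heterozygous and 0.30 in homozygous mESCs against wild-type and 0.43 between the deletions, all on the log2 scale.

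Around the 10 genes, 54 other genes of the pathway were listed as ligands, receptors, kinases and STATs, inhibitors and further STAT3 targets. The low-count filter removed 3 of them, *Osm*, *Il27* and *Pramel7*, and 51 were tested. In heterozygous mESCs 0 were called higher by edgeR or by DESeq2, with 4 higher at an unadjusted p below 0.05. There 4 were called lower, among them *Il11*, *Osmr* and *Klf4*. In homozygous mESCs 5 rose and 16 fell, 4 of the latter past the fold threshold, and between the deletions 6 rose and 14 fell. Of all genes tested 2.23% rose and 2.91% fell in heterozygous mESCs, and 10.9% and 10.5% in homozygous mESCs. Between the deletions the shares were 12.9% and 12.9%. In the homozygous comparison and between the deletions, the pathway genes that rose were thus near the background share, which includes chromosome 8. Those that fell, 16 and 14 of 51 by edgeR, were above it, and this excess was not tested. The median log2 fold change of the 51 was -0.06, -0.13 and -0.13.

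Ligand genes had the lowest median of these lists in homozygous mESCs. *Lif* itself, transcribed in these cultures although LIF was supplied in the medium, had 18.1 and 16.3 CPM in the wild-type pair, 18.2 and 16.8 in the heterozygous pair and 12.8 and 13.4 in the homozygous pair. The homozygous libraries lay below the other 4, and *Lif* fell by 24.1% against wild-type (log2 fold change -0.40, SE 0.09, adjusted p = 0.0026), a call lost without wild-type replicate 1 (-0.32, adjusted p = 0.071). In heterozygous mESCs its value was 0.02 (adjusted p = 0.95). Of 7 ligand genes tested 4 fell in homozygous mESCs, with a median of -0.40, where 10.5% of all genes tested fell. *Il11*, encoding interleukin 11, fell by 1.32 on the log2 scale (SE 0.13, adjusted p = 2.3e-07), from 8.48 and 9.48 CPM in wild-type to 3.41 and 3.77. *Clcf1*, which encodes a cytokine of the same family, fell by 1.23 (SE 0.13, adjusted p = 4.6e-07), from 9.19 and 8.77 to 3.54 and 4.11 CPM. *Il6*, the founding cytokine of the family, had only 15 and 18 counts in the wild-type pair, 11 and 7 in the heterozygous pair and 4 and 4 in the homozygous pair. Its homozygous log2 fold change was -1.85 (SE 0.53, adjusted p = 0.016), a call lost without wild-type replicate 2 (0.11) or homozygous replicate 2 (0.065).

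Of 6 other receptor genes tested, 2 fell in each deletion and 1 rose in the homozygous one. The shares of all genes that fell were 2.91% in heterozygous and 10.5% in homozygous mESCs, and 10.9% rose in the latter. *Osmr*, the oncostatin M receptor chain that pairs with gp130, had 5.75 and 5.29 CPM in the wild-type pair, 3.14 and 3.87 in the heterozygous pair and 2.14 and 2.69 in the homozygous pair. The genotypes did not overlap, with log2 fold changes of -0.65 (SE 0.15, adjusted p = 0.014) and -1.19 (SE 0.17, adjusted p = 2.6e-05). The heterozygous calls of *Osmr*, *Il11* and *Klf4* were lost under DESeq2, with adjusted p of 0.14, 0.34 and 0.14, and with either wild-type library left out.

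Kinases and STATs carry the signal and the inhibitors, among them other SOCS and PIAS genes and phosphatases, end it. In heterozygous mESCs 0 of 8 other kinases and STATs and 0 of 15 inhibitors were called by edgeR or by DESeq2, with 3 and 3 at an unadjusted p below 0.05. In homozygous mESCs 1 of the 8 rose and 3 fell, and 1 of the 15 rose and 3 fell, with medians of -0.18 and -0.02. Of all genes tested 2.23% rose and 2.91% fell in heterozygous mESCs, and 10.9% and 10.5% in homozygous mESCs. *Stat5a*, a STAT gene whose exons share 72 bases with *Stat3* on the opposite strand, had 2.25 and 2.31 CPM in the wild-type pair, 2.25 and 1.80 in the heterozygous pair and 1.27 and 1.31 in the homozygous pair. Its homozygous log2 fold change was -0.82 (SE 0.23, adjusted p = 0.013), lost under DESeq2 (0.11) and without wild-type replicate 1 (0.067) or 2 (0.075). Of 15 further targets 2 rose and 4 fell in homozygous mESCs. *Klf4*, a pluripotency factor gene induced by STAT3, had 32.0 and 31.6 CPM in the wild-type pair, 27.8 and 25.6 in the heterozygous pair and 27.6 and 28.1 in the homozygous pair, with log2 fold changes of -0.25 (SE 0.07, adjusted p = 0.028) and -0.19 (SE 0.07, adjusted p = 0.046). The homozygous call of *Klf4* was lost under DESeq2 (0.21) and with any library of the comparison left out. The 5 pathway genes that rose in homozygous mESCs, named after their values were seen, were the ciliary neurotrophic factor receptor *Cntfr* (0.44), the AP-1 subunit *Junb* (0.36), the phosphatase SHP-1 gene *Ptpn6* (0.26), the Janus kinase *Tyk2* (0.20) and the pluripotency factor *Klf5* (0.14) on the log2 scale. Of these *Cntfr* was called in all 14 alternatives. The other calls were lost under DESeq2 (adjusted p = 0.20 for *Ptpn6*, 0.095 for *Klf5*, 0.14 for *Tyk2* and 0.21 for *Junb*), and in all *Ptpn6* and *Klf5* lost theirs in 10 alternatives each, *Tyk2* in 6 and *Junb* in 3. *Junb* lies on chromosome 8, where the 890 genes tested had a median of 0.39 in this comparison. The part of the chromosome in this value was not tested.

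**Figure D4:**
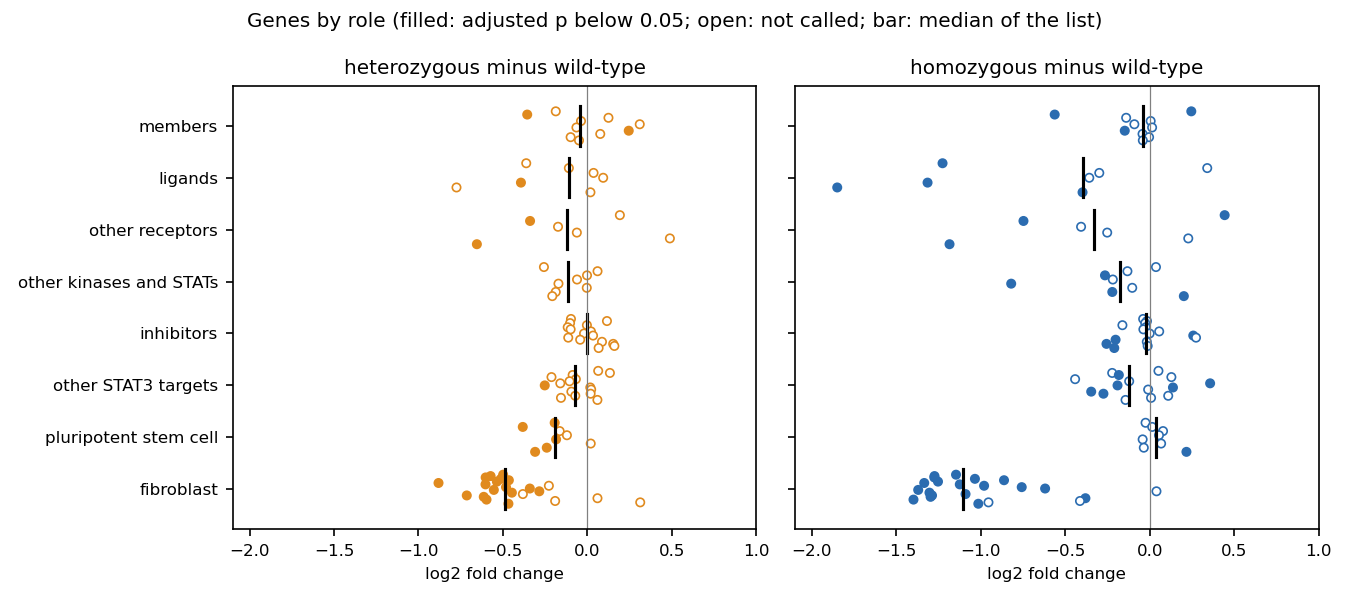
Log2 fold change (x axis) of the 10 genes (members), the other pathway lists and the pluripotent stem cell and fibroblast marker lists (y axis) in heterozygous and homozygous mESCs against wild-type; each point is a gene, filled where the edgeR adjusted p was below 0.05, and bars are list medians. In homozygous mESCs the medians are -0.04 for the 10 genes, -0.40 for ligands and -1.11 for fibroblast markers.

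Fibroblast markers moved with genotype beside these lists, while 2.91% of all genes tested fell in heterozygous and 10.5% in homozygous mESCs. Of 24 listed, 22 were tested, and 17 fell and 0 rose in heterozygous mESCs by edgeR (0 higher at an unadjusted p below 0.05 and 0 by DESeq2), with a median log2 fold change of -0.49. In homozygous mESCs 19 fell, 14 of them past the fold threshold, with a median of -1.11. Their summed level was 4017 and 3929 CPM in the wild-type pair, 2952 and 2902 in the heterozygous pair and 2152 and 2140 in the homozygous pair, and none of the 24 was at 0 in all libraries. Among the 10 genes and the pathway genes named above, *Gbx2*, *Il11*, *Clcf1*, *Osmr* and, at few counts, *Il6* followed the same order. Their libraries fell without overlap from wild-type to homozygous, and other pathway genes were not searched for this order. *Il6st*, *Jak2* and *Pim1*, with their highest levels in heterozygous mESCs, and *Bcl3*, with its highest in homozygous mESCs, did not follow this order. The part of the feeder cells in any of these differences was not tested.

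Pluripotent stem cell markers had another order. Of 8 tested, 5 fell in heterozygous mESCs (median -0.19), 1 rose in homozygous mESCs (median 0.03) and 7 rose from heterozygous to homozygous mESCs. Of all genes tested 2.23% rose and 2.91% fell in heterozygous mESCs, and 10.9% and 10.5% in homozygous mESCs. Between the deletions the shares were 12.9% and 12.9%, and these shares apply to the other marker counts below as well. The marker that rose against wild-type was *Zfp42*, also called Rex1 (0.22, SE 0.04, adjusted p = 0.0011), which like *Junb* lies on chromosome 8. Their summed level was 3162 and 3229 CPM in the wild-type pair, 2931 and 2876 in the heterozygous pair and 3360 and 3176 in the homozygous pair. *Bcl3* had its lowest level in the same genotype as these markers, while *Pim1*, *Il6st* and *Jak2* had their highest there. Markers of primitive endoderm summed to between 426 and 462 CPM, and those of primed cells and early germ layers to between 1517 and 1580 CPM, but single markers moved further than these sums. *Cubn*, an endocytic receptor gene of endoderm named after its values were seen, had 2.01 and 1.72 CPM in the wild-type pair, 4.54 and 4.58 in the heterozygous pair and 2.18 and 1.77 in the homozygous pair, and rose by 1.28 on the log2 scale in heterozygous mESCs (SE 0.18, adjusted p = 9.3e-05). In heterozygous mESCs 1 of 7 primitive endoderm markers and 1 of 10 primed or germ layer markers rose and 1 of the latter fell. In homozygous mESCs 1 and 3 rose and 2 and 2 fell. Between the deletions 0 of the 7 rose by edgeR (0 at an unadjusted p below 0.05 and 0 by DESeq2) and 4 fell, 2 of them past the fold threshold, and of the 10 primed or germ layer markers 3 rose and 2 fell, with log2 fold changes from -1.15 to 1.97.

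The genes most like *Lifr* and *Socs3* across the 6 libraries were named by the correlation of log2 CPM, which is a description. For *Lifr* they were 4933435E02Rik (0.99), *Kansl2* (0.98) and *Rad51c* (0.97), and 121 genes among the 16951 tested were above 0.9. For *Socs3* they were *Lsm7* (0.98), Gm18234 (0.98) and *Gad2* (0.97), and 101 were above 0.9. All correlations share the same libraries, and both genes varied little among them. How many unrelated genes would pass 0.9 with so few libraries was not tested, so the named genes are not shown to be related.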

How the data were processed

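Polyadenylated RNA of 6 mESC libraries, 2 per genotype by their labels, had been made with a stranded kit; the methods state 3 biological replicates. The authors deposited whole-number read counts per gene for 55385 genes. The submitters' processing notes name Trimmomatic 0.39, STAR 2.6.1d, SAMtools 1.9, featureCounts 1.6.4 and DESeq2 1.22.2 and the builds mm10 and GRCm38, and the strand setting and annotation release are not given in the sources used here.

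From these counts, the 16951 genes reaching 10 counts in 2 or more libraries were scaled by TMM and fitted in edgeR 4.0.16 (limma 3.58.1, R 4.3.3) as one quasi-likelihood model of 3 genotypes over all 6 libraries. Benjamini-Hochberg adjustment ran over all genes tested, and intervals are 95%. CPM uses TMM-adjusted totals. The common coefficient of biological variation was 3.52%. Library totals made 3 counts equal to 0.102 to 0.131 CPM, and the 10 genes had 232 to 3913 counts per library, for which counting alone gives an SD of 6.57% to 1.60%. Replicate libraries differed by more than sampling noise (chi-square per degree of freedom 2.21 to 3.38). Positions and exon lengths came from GENCODE M21 (GRCm38; 55144 identifiers matched) and upstream sequence from RefSeq. The fit was also run on simulated counts that gave every gene the same spread, which does not check the calls given here. Figures were drawn in Python 3.11.15 with matplotlib 3.10.9.

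The 10 genes and all lists were chosen with earlier results of these data known. Named besides the 10 were *Lif*, up to 6 called pathway genes with the largest absolute log2 fold change in each deletion, the 3 genes most like *Lifr* and *Socs3*, and *Pou5f1*, *Col1a1*, *Wnt6* and *Cdk5r2* as checks. A gene that this rule also picks is not reported here. The settings varied were the test (DESeq2 1.42.0), the scaling (DESeq2 size factors or total counts only in edgeR), both other filters, only the genotypes compared, the replicate block, the fold threshold and each library left out. Crossed replicate numbers and another gene length were added after seeing the data.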

Additional observations from a re-analysis of the deposited data

How the results depend on the processing

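Of the 30 fold changes of the 10 genes, each under 14 alternatives, 381 values kept their direction and side of the threshold, and the 39 others are lost or gained calls, given beside each gene, and uncalled values that crossed 0. The counts of calls moved more. Main counts for all genes were 871 in heterozygous and 3633 in homozygous mESCs against wild-type and 4371 between the deletions. DESeq2 gave 476, 2243 and 2770, the fold threshold 28, 362 and 236. With DESeq2 the 10 genes had 0 lower calls in heterozygous mESCs and 0 higher and 1 lower in homozygous mESCs, and the pathway genes had 1 lower in heterozygous, 1 higher and 9 lower in homozygous and 8 lower between the deletions. With the fold threshold all counts of the 10 genes and the pathway were 0 except 4 pathway genes lower in homozygous mESCs. With only the genotypes compared, 2 of the 10 genes and 1 pathway gene were higher in heterozygous and 3 pathway genes in homozygous mESCs. Total counts only gave 0 of the 10 and 2 pathway genes higher in homozygous mESCs, and no filter gave 3 pathway genes higher there.

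Leaving out each library gave, for the 10 genes, 0 to 2 higher and 0 to 1 lower in heterozygous, 0 to 1 and 1 to 2 in homozygous mESCs and 1 to 1 and 2 to 3 between the deletions. For pathway genes it gave 0 to 1 and 1 to 6, 2 to 3 and 8 to 17, and 4 to 5 and 10 to 12. For all genes it gave 351 to 1302, 2115 to 3604 and 2903 to 4339. Leaving out either homozygous library raised the heterozygous count of all genes to 1302 and 1294. The causes were not tested.

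Same-numbered libraries did not pair, with correlations of their deviations of 0.03, -0.12 and 0.01. The replicate block gave 2 pathway genes higher in homozygous mESCs, against 5 without it, and the crossed pairing gave 0 of the 10 higher there, against 1.

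Uncalled log2 fold changes that crossed 0 are given with their range over the libraries left out in turn, or with the setting. In heterozygous mESCs they were *Lif* (-0.052 to 0.097), *Ptpn6* (-0.042 to 0.11), *Klf5* (-0.015 to 0.051), *Junb* (-0.38 to 0.039) and *Pim2* (-0.0037 to 0.041). In homozygous mESCs they were *Lifr* (-0.043 with total counts only, -0.010 to 0.045 over the libraries left out), *Stat3* (-0.075 to 0.00051), *Socs3* (0.00069 with DESeq2, 0.00096 with DESeq2 size factors, -0.027 to 0.026 over the libraries left out) and *Jak1* (-0.052 with total counts only, -0.0020 with no low-count filter, -0.0020 to 0.021 over the libraries left out). Between the deletions they were *Stat3* (-0.058 with total counts only, -0.00061 to 0.018 over the libraries left out), *Jak1* (-0.024 with total counts only) and *Klf4* (-0.0048 with total counts only). With 2 libraries a genotype, a value that was not called does not show that its gene did not differ.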
